A study of Homo sapiens with 36 samples.

Results

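The genes described here were 48 listed genes of the hypoxia response and of glycolysis, listed by name. Of the 48 symbols, 47 were rows of the count matrix, and all 47 had enough reads to be tested among the 19689 genes tested in all; PKM2 is an older symbol of PKM and had no row of its own. By role, the 47 were 5 subunits of the hypoxia-inducible factors (HIF), 4 genes of oxygen sensing, 15 HIF target genes, 3 transporters of glucose or lactate, 15 genes of the steps of glycolysis, and 5 genes that steer carbon at the branch points of the pathway.

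In cells with enough oxygen, prolyl hydroxylases of the EGLN family mark the HIF alpha subunits (HIF1A, EPAS1, HIF3A), and the VHL protein then directs the marked subunits to degradation. When oxygen is low, the alpha subunits persist, pair with ARNT or ARNT2, and bind DNA at a short element with the core ACGTG or GCGTG, near genes for glucose uptake, glycolysis, blood vessel growth and collagen modification. Since the alpha subunits are controlled mainly as proteins, their mRNA levels do not measure the activity of the pathway. Neural stem cells are known to rely strongly on glycolysis, and the paralogs of a glycolytic step, such as HK1 and HK2 for the first step, differ in the tissues and states in which they are used.

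RNA-seq was performed on cultured human neural stem cells (hNSC), a commercial line, 48 h after lentiviral transduction, with 6 libraries for each of 6 conditions. For the overexpression of MEIS1 or MEIS2 (MEIS1-OE, MEIS2-OE), a CRISPR-activation system targeted the respective gene. It comprised dCas9-VP64, the MPHv2 activator and an MS2-bearing guide RNA, delivered as 3 viruses. The paper lists a single activation guide per gene, so effects of the guide and of the raised gene cannot be told apart. MEIS1 and MEIS2 are transcription factor genes linked by genetics to restless legs syndrome. In MEIS1-KO and MEIS2-KO, Cas9 was delivered from LentiCRISPRv2 with a mix of 2 guides per gene. ctrl-OE and ctrl-KO carried the respective system with non-targeting guides. The labels do not say whether the libraries of a condition came from separate cultures, so the p-values measure the spread between these libraries. In bulk RNA, fewer cells that express a gene and less RNA per cell cannot be told apart.

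The libraries held between 15429985 and 22940493 counts on genes. The targeted genes followed their labels: MEIS1 was at 287 to 323 CPM (counts scaled to a common library size) in MEIS1-OE and 15.7 to 18.9 in ctrl-OE, and at 6.43 to 11.2 in MEIS1-KO and 23.7 to 28.0 in ctrl-KO, while MEIS2 was at 793 to 852 CPM in MEIS2-OE and 20.5 to 24.1 in ctrl-OE, and at 10.5 to 13.4 in MEIS2-KO and 23.5 to 27.4 in ctrl-KO. All 9 neural stem cell markers were detected with a median of 20 or more counts in every condition, as were 4 of the 7 neuron markers (405 to 1039 CPM for the list) and the pluripotency-associated genes LIN28A and DPPA4, while POU5F1 and NANOG had mean levels of at most 0.155 CPM. The 6 oligodendrocyte lineage markers together made up 25.3 to 39.4 CPM and the 5 astrocyte markers 1.93 to 6.24 CPM. By expression of the genes that varied most over the 36 libraries, 30 libraries were nearest to the mean of their own condition. The other 6 were from the knockout system (4 MEIS1-KO libraries, 1 MEIS2-KO library and 1 ctrl-KO library).

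To show where HIF could bind near these genes, the 250 bases upstream of each gene's start were searched in RefSeq promoter sequences (GRCh38.p14), which matched 41 of the 47 members. ARNT2, VHL, VEGFA, NDRG1, BNIP3L and SLC2A3 were not matched. For 37 of the 41, the bases after the start were found in an annotated transcript of the gene, and for GAPDH, PFKFB3, PFKM and PFKP they were not. The letters ACGTG, on either strand, occurred upstream of 17 of the 41 members (41.5%) and of 18.5% of all 35116 promoters. GCGTG occurred upstream of 15 members (36.6%) and of 32.2% of all promoters, and either of them upstream of 27 members (65.9%) and of 43.2%. The MEIS motif TGACAG occurred upstream of 0 of the 41 members and of 13% of all promoters. The shares over all promoters were not matched to the members by GC content. The paper reports that MEIS bound mostly far from gene starts, so its absence from this window says nothing of MEIS binding near these genes. Upstream sequences are shown for members that the results below turn on: the hexokinase gene HK2, the enolase gene ENO2, the collagen hydroxylase gene P4HA1, the lactate dehydrogenase gene LDHA and the HIF alpha gene EPAS1. ACGTG and GCGTG are in capitals, with their reverse complements CACGT and CACGC where they lie on the other strand, and the sequence runs 5′ to 3′ on the gene's strand up to the base before the start.
HK2 (chr2:74833877-74834126, + strand): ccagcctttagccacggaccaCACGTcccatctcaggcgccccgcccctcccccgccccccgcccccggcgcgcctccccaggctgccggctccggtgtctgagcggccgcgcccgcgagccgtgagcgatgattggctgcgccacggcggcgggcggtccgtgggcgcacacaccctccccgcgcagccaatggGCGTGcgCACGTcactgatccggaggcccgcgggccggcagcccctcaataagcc
ENO2 (chr12:6914330-6914579, + strand): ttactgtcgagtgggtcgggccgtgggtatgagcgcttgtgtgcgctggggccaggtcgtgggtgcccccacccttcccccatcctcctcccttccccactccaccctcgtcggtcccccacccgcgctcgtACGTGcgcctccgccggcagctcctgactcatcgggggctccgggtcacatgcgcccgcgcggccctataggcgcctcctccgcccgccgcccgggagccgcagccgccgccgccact
P4HA1 (chr10:73096867-73097116, - strand): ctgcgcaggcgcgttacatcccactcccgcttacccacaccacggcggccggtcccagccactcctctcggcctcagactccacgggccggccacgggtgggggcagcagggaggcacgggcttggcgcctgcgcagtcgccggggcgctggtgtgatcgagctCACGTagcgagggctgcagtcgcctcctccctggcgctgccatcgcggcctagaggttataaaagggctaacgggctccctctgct
LDHA (chr11:18394313-18394562, + strand): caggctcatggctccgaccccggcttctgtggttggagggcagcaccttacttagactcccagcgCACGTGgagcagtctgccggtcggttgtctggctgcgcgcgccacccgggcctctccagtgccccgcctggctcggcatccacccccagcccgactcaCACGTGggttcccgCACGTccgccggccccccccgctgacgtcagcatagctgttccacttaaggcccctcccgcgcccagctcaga
EPAS1 (chr2:46297157-46297406, + strand): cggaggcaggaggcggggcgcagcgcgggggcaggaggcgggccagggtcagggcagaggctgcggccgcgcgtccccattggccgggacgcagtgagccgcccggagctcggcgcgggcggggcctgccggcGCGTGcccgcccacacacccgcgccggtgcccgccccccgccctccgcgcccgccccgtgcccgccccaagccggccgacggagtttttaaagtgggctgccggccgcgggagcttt
HK2 held ACGTG at positions -229 and -48 and GCGTG at -55, counted from the start. ENO2 held ACGTG once, at -118, and P4HA1 once, at -86. LDHA held it at -185, -184, -87, -86 and -73, where each of the first pairs is a CACGTG that reads the same on both strands and so counts on each. EPAS1 held no ACGTG and GCGTG at -117. A match is a description of the letters in this window and says nothing of whether a factor was bound in hNSC.

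The members spanned a wide range of levels, which were compared between genes as CPM per kb of exon. GAPDH, which makes the first high-energy intermediate of the payoff phase, had the highest level of the members in each control, with a mean of 843 CPM per kb in ctrl-OE and 1100.0 in ctrl-KO. LDHB (320 and 437), ENO1 (204 and 273), TPI1 and the glucose transporter gene SLC2A1 (182 and 166) were the next highest. TPI1 was above ENO1 in ctrl-OE and below it in ctrl-KO, and its condition means lay between 203 and 259. Where a step has paralogs, one of them dominated: HK1 was at 21.5 CPM per kb in ctrl-OE against 6.18 for HK2, PFKM at 25.3 against 8.96 for PFKL and 3.11 for PFKP, and ENO1 at 204 against 27.1 for ENO2. Of the alpha subunits, HIF1A was at 58.1 CPM per kb in ctrl-OE, EPAS1 at 0.907 and HIF3A at 1.28. At the low end, EGLN3 was at 0.122 CPM per kb in ctrl-OE, and CA9, which encodes a carbonic anhydrase widely used as a hypoxia marker, had between 0 and 2 counts in any library, so that no fold change is given for it.

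**Figure D1:**
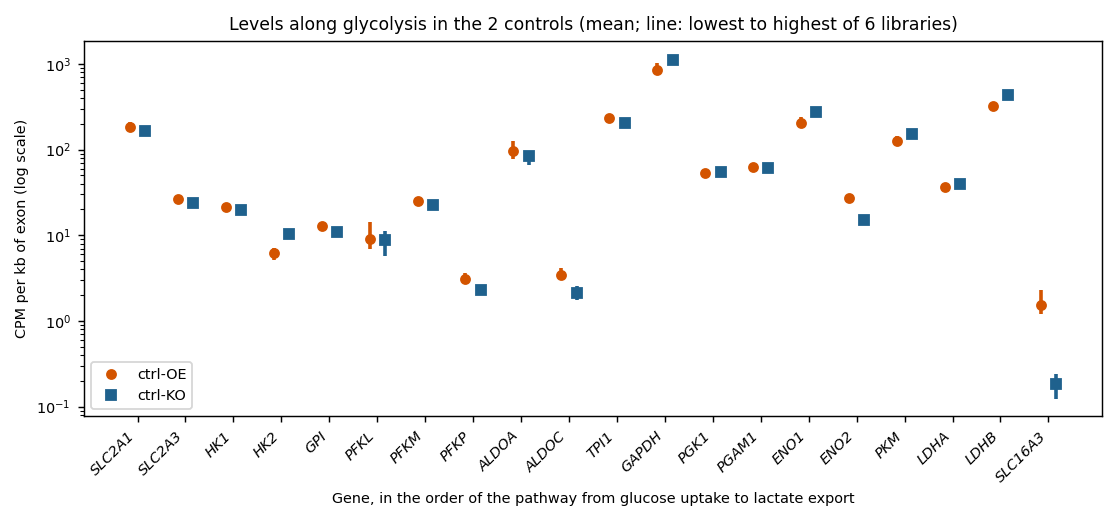
Levels of 20 transporter and glycolysis genes in ctrl-OE (circles) and ctrl-KO (squares), in CPM per kb of exon on a log axis and in pathway order; symbols are means and lines run from the lowest to the highest of 6 libraries. GAPDH stood at 843 and 1100.0 CPM per kb, and SLC16A3 showed the widest separation of the 2 controls, at 1.55 and 0.185.

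HIF1A, the main alpha subunit of the acute hypoxia response, did not pass the test in any of the 9 comparisons. Its mean level per condition lay between 55.2 CPM per kb in ctrl-KO and 61.9 in MEIS2-OE. The 95% interval of its log2 fold change ran from -0.08 to 0.10 in MEIS1-OE, from 0.00 to 0.18 in MEIS2-OE, from -0.02 to 0.17 in MEIS1-KO and from -0.08 to 0.11 in MEIS2-KO, each against its control. The other members that passed no test were EGLN2, CA9, BNIP3L, ANKRD37, PFKL, ALDOA, PGK1, PGAM1, PDK1 and PFKFB3. PDK1, a kinase that inhibits pyruvate dehydrogenase, and PGK1, the first ATP-making enzyme of glycolysis, are both classic HIF targets. Their mean levels varied over the 6 conditions by 1.16-fold and 1.08-fold, respectively.

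MEIS1 overexpression changed 11 of the 47 members against ctrl-OE (at an adjusted p under 0.05), where 9.1% of all tested genes were called. Of the members, 8 were higher (5.52% of all genes) and 3 lower (3.58%). Of the members called, 2 were beyond a log2 fold change of 0.58 (about 1.5-fold), against 2.84% of all genes. The median absolute log2 fold change was 0.1165 over the 47 members and 0.1205 over all genes. The largest rises were in NDRG1, a stress-responsive gene and HIF target, and in EGLN3, the oxygen sensor that HIF itself induces. HK2 and PFKP, which encode kinases of the regulated early steps of glycolysis, fell. The libraries of MEIS1-OE and ctrl-OE did not overlap for 8 members, against 4.38% of all genes.

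NDRG1 had a lowest, median and highest value of 3.94, 5.88 and 6.98 CPM in ctrl-OE and of 9.06, 14.9 and 17.7 CPM in MEIS1-OE. Each MEIS1-OE library was above all ctrl-OE libraries, and the log2 fold change was 1.36 ± 0.14 (SE; edgeR quasi-likelihood test, Benjamini-Hochberg adjusted p = 1.27e-09). EGLN3 was a rare transcript, with 14 to 33 counts per ctrl-OE library and 35 to 65 per MEIS1-OE library. Its values were 0.651, 0.847 and 1.37 CPM in ctrl-OE and 1.74, 2.35 and 2.95 CPM in MEIS1-OE, again without overlap, and the log2 fold change was 1.35 ± 0.19 (SE; edgeR, Benjamini-Hochberg adjusted p = 2.22e-06).

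ENO2, the neuron-enriched enolase, rose from 111, 115 and 125 CPM (lowest, median and highest) in ctrl-OE to 148, 154 and 163 CPM in MEIS1-OE. The groups did not overlap, and the log2 fold change of 0.42 ± 0.04 (SE) had an adjusted p of 7e-10 in edgeR's test with Benjamini-Hochberg adjustment. P4HA1, the catalytic subunit of the enzyme that hydroxylates proline in collagen, rose from 122, 129 and 142 CPM to 153, 166 and 184 CPM, a log2 fold change of 0.33 ± 0.05 (SE). For both genes, as for NDRG1 and EGLN3, the lowest MEIS1-OE library was above the highest ctrl-OE library.

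The remaining rises were smaller. PFKM, the main phosphofructokinase of these cells, rose by a log2 fold change of 0.22 ± 0.04 (SE) and MXI1, a MYC antagonist induced by HIF, by 0.23 ± 0.06, both without overlap of the libraries. HIF3A, whose shorter products can restrain the other alpha subunits, rose by 0.36 ± 0.09 and ANGPTL4, a secreted inhibitor of lipoprotein lipase, by 0.57 ± 0.18, with 5 of 6 MEIS1-OE libraries above all ctrl-OE libraries for each. The calls of HIF3A and ANGPTL4 were lost when some single replicate numbers were left out (HIF3A: adjusted p up to 0.057; ANGPTL4: up to 0.181).

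Among the members that fell in MEIS1-OE, PFKP, the platelet-type phosphofructokinase, was at 20.9, 23.4 and 28.0 CPM in ctrl-OE and at 13.7, 18.6 and 20.2 CPM in MEIS1-OE, a log2 fold change of -0.42 ± 0.10 (SE; edgeR, Benjamini-Hochberg adjusted p = 0.00478). HK2, the inducible hexokinase that binds mitochondria, fell by 0.38 ± 0.06 (SE) on the log2 scale. Neither gene's libraries overlapped with those of ctrl-OE. ARNT2, the neural partner of the alpha subunits, had a log2 fold change of -0.16 ± 0.05 with overlapping libraries, and its adjusted p rose to 0.117 when only MEIS1-OE and ctrl-OE were fitted and up to 0.169 when single replicate numbers were left out.

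Beside these changes, 5 of the 8 proliferation markers tested were lower in MEIS1-OE than in ctrl-OE (among them MKI67, with a log2 fold change of -0.30 ± 0.06, SE), and their summed level was 1809 to 2180 CPM in MEIS1-OE and 2045 to 2313 in ctrl-OE. Of the 9 neural stem cell markers, 1 was lower. Of the 6 neuron markers tested, 1 was higher, SYT1 (log2 fold change 0.26 ± 0.06, SE), and TUBB3 had 0.34 ± 0.16 without passing the test; the summed level of the list was 471 to 531 CPM in MEIS1-OE and 405 to 587 in ctrl-OE. The part of these differences in the results for MEIS1-OE was not tested.

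MEIS2 overexpression changed 1 of the 47 members, against 1.35% of all tested genes. HK2 rose from 30.6, 36.4 and 42.2 CPM (lowest, median and highest) in ctrl-OE to 44.04, 44.6 and 52.5 CPM in MEIS2-OE, without overlap. Its log2 fold change was 0.34 ± 0.06 (SE; edgeR, Benjamini-Hochberg adjusted p = 3.17e-04). An unadjusted p under 0.05 was found for 5 members and for 7.64% of all genes. The intervals of the other genes that rose in MEIS1-OE were narrow for the abundant ones, with a 95% interval of -0.15 to 0.01 for ENO2 and of -0.06 to 0.14 for P4HA1, and wider for the rare ones, with -0.36 to 0.22 for NDRG1 and -0.61 to 0.30 for EGLN3.

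Since both overexpressions were compared with the same ctrl-OE libraries, the difference between them was tested directly. In MEIS1-OE against MEIS2-OE, 13 of the 47 members were called, where 7.75% of all genes were, with 9 higher in MEIS1-OE (4.93% of all genes) and 4 lower (2.82%). The libraries did not overlap for 10 members (4.09% of all genes). The median absolute log2 fold change was 0.1226 over the members and 0.1195 over all genes. HK2 differed by a log2 fold change of -0.73 ± 0.06 (SE), with 24.9, 28.2 and 30.1 CPM in MEIS1-OE and 44.04, 44.6 and 52.5 in MEIS2-OE. NDRG1 was higher in MEIS1-OE by 1.43 ± 0.14, EGLN3 by 1.51 ± 0.20, HIF3A by 0.54 ± 0.09 and ENO2 by 0.49 ± 0.04 on the log2 scale. ALDOC, the brain-enriched aldolase, was lower in MEIS1-OE by a log2 fold change of -0.40 ± 0.10; against ctrl-OE it had 0.26 ± 0.09 in MEIS2-OE and -0.14 ± 0.10 in MEIS1-OE, neither of which passed the test.

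**Figure D2:**
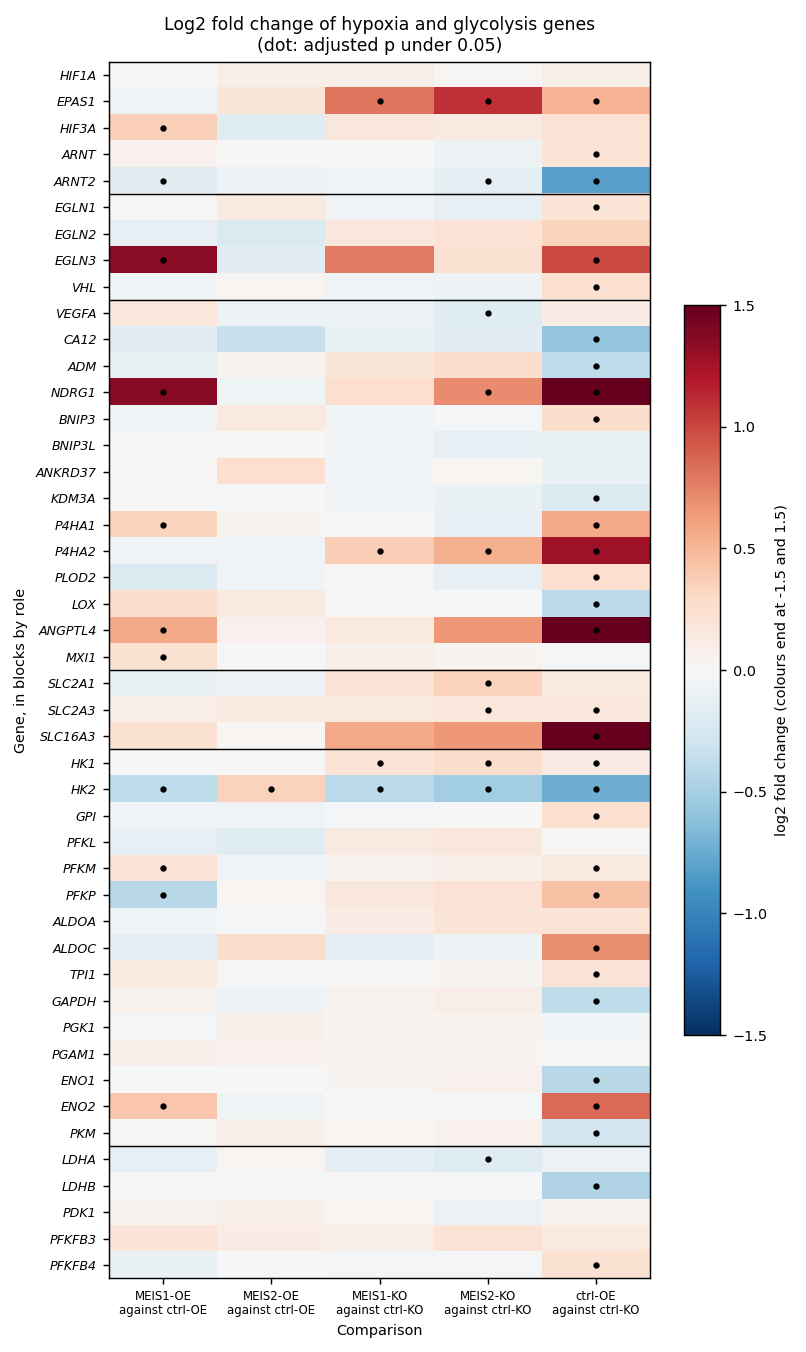
Log2 fold changes of 46 members (rows, in blocks by role; CA9 left out) in 5 comparisons (columns), with red for higher and blue for lower in the first-named condition and a dot for an adjusted p under 0.05. HK2 carries a dot in each column, red only in MEIS2-OE, and ctrl-OE against ctrl-KO holds 31 dots.

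In the knockouts, the data showed rises of EPAS1 (HIF-2 alpha), P4HA2 and HK1 and a fall of HK2. MEIS1-KO changed 4 of the 47 members against ctrl-KO, where 1.46% of all tested genes were called, with 3 higher (1.03% of all genes) and 1 lower (0.432%). MEIS2-KO changed 10, where 10% of all genes were called, with 6 higher (4.04%) and 4 lower (5.98%). The libraries did not overlap with those of ctrl-KO for 4 members in MEIS1-KO (1.39% of all genes) and for 9 in MEIS2-KO (6.44%). The members' median absolute log2 fold change was 0.074 in MEIS1-KO (0.097 over all genes) and 0.124 in MEIS2-KO (0.143 over all genes). The ctrl-KO libraries served for both knockouts, so the values are given side by side and not as independent evidence. The guides of ctrl-KO were non-targeting, so Cas9 was directed to a target only in the knockouts. Effects of cutting DNA and of losing MEIS1 or MEIS2 cannot be told apart here. Of the 6 conditions, ctrl-KO had the lowest mean for EPAS1, P4HA2 and HK1 and the highest for HK2. Whether ctrl-KO itself was shifted was not tested.

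EPAS1, an alpha subunit best known from endothelium and from chronic hypoxia, had a lowest, median and highest value of 3.83, 4.37 and 5.81 CPM in ctrl-KO, of 6.08, 7.16 and 10.7 in MEIS1-KO and of 7.17, 10.0 and 12.3 in MEIS2-KO. Each knockout library lay above all ctrl-KO libraries. The log2 fold change was 0.80 ± 0.15 (SE; edgeR, Benjamini-Hochberg adjusted p = 0.00214) in MEIS1-KO and 1.10 ± 0.15 (adjusted p = 6.72e-06) in MEIS2-KO. In the overexpressions it was -0.06 ± 0.14 and 0.18 ± 0.14 against ctrl-OE, neither of which passed the test.

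P4HA2, the paralog of P4HA1, was at 4.36, 4.85 and 5.21 CPM in ctrl-KO, at 5.47, 6.29 and 6.82 in MEIS1-KO and at 6.07, 7.10 and 7.73 in MEIS2-KO. The groups did not overlap, and the log2 fold changes were 0.37 ± 0.08 (SE; edgeR, Benjamini-Hochberg adjusted p = 0.00449) and 0.53 ± 0.07 (adjusted p = 1.17e-05). HK1, the hexokinase of most brain cells, rose by 0.20 ± 0.05 and 0.26 ± 0.05 on the log2 scale, from 132 to 140 CPM in ctrl-KO to 141 to 174 in MEIS1-KO and 149 to 179 in MEIS2-KO. In MEIS1-KO, the call of HK1 was lost without replicates 1, 3, 4, 5 or 6 (adjusted p up to 0.173).

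HK2 went the other way. It was at 58.0, 61.0 and 64.4 CPM in ctrl-KO, at 42.7, 45.8 and 52.4 in MEIS1-KO and at 40.1, 42.6 and 44.4 in MEIS2-KO, so that no knockout library reached the lowest ctrl-KO library. The log2 fold changes were -0.39 ± 0.06 (SE; edgeR, Benjamini-Hochberg adjusted p = 3.15e-04) and -0.52 ± 0.06 (adjusted p = 4.2e-07).

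Further calls in MEIS2-KO were made for transporter and lactate dehydrogenase genes. SLC2A1, the glucose transporter of the blood-brain barrier and of most growing cells, was at 967, 1126 and 1181 CPM in ctrl-KO and at 1276, 1382 and 1581 in MEIS2-KO, a log2 fold change of 0.34 ± 0.09 (SE). SLC2A3, the neuronal glucose transporter, rose by 0.16 ± 0.05. The SLC2A1 call was lost without replicate 2 or 5 (edgeR, adjusted p = 0.0614 and 0.053), and the SLC2A3 call without a filter on low counts (adjusted p = 0.054) and without replicates 2, 3, 4, 5 or 6 (up to 0.174). LDHA, the lactate dehydrogenase subunit that favours lactate production, fell from 222, 236 and 257 CPM to 192, 206 and 219 CPM, a log2 fold change of -0.20 ± 0.05 (SE; edgeR, Benjamini-Hochberg adjusted p = 0.00849); without replicate 5 the adjusted p was 0.0583.

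The rest of the MEIS2-KO calls were close to the threshold. NDRG1 rose by 0.71 ± 0.22 on the log2 scale at 15 to 31 counts per ctrl-KO library and 29 to 52 per MEIS2-KO library, VEGFA, the main growth factor for blood vessels, fell by 0.19 ± 0.06, and ARNT2 by 0.15 ± 0.05. ARNT2 was lost with RLE scaling (adjusted p = 0.0531) and without replicates 1, 2, 4 or 5 (up to 0.134). VEGFA was no longer called with each replicate number left out in turn (adjusted p between 0.0512 and 0.137), nor with DESeq2 (adjusted p = 0.0615), and NDRG1 was lost without replicates 1, 2, 4 or 5 (adjusted p up to 0.243). Without replicate 2, 4 or 5, the members called in MEIS2-KO numbered 5, 6 and 4.

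Compared with each other, the knockouts differed in 0 of the 47 members by edgeR and in 0 by DESeq2, against 0.0152% of all genes, and 7 members had an unadjusted p under 0.05, as had 5.68% of all genes. The 95% interval of the log2 difference, MEIS1-KO minus MEIS2-KO, was -0.58 to -0.03 for EPAS1, -0.30 to -0.01 for P4HA2, 0.02 to 0.25 for HK2 and -0.32 to 0.04 for SLC2A1. In MEIS2-KO against ctrl-KO, 3 of the 9 neural stem cell markers were lower and 1 higher, 2 of 8 proliferation markers were lower, and 1 of 6 neuron markers was lower (DCX, at under 20 counts). In MEIS1-KO, 1 neural stem cell marker was lower (PAX6, log2 fold change -0.42 ± 0.10, SE) and 1 higher (VIM, 0.25 ± 0.07), and 1 proliferation marker was lower (MCM6, -0.21 ± 0.05). The part of these differences in the knockout results was not tested.

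**Figure D3:**
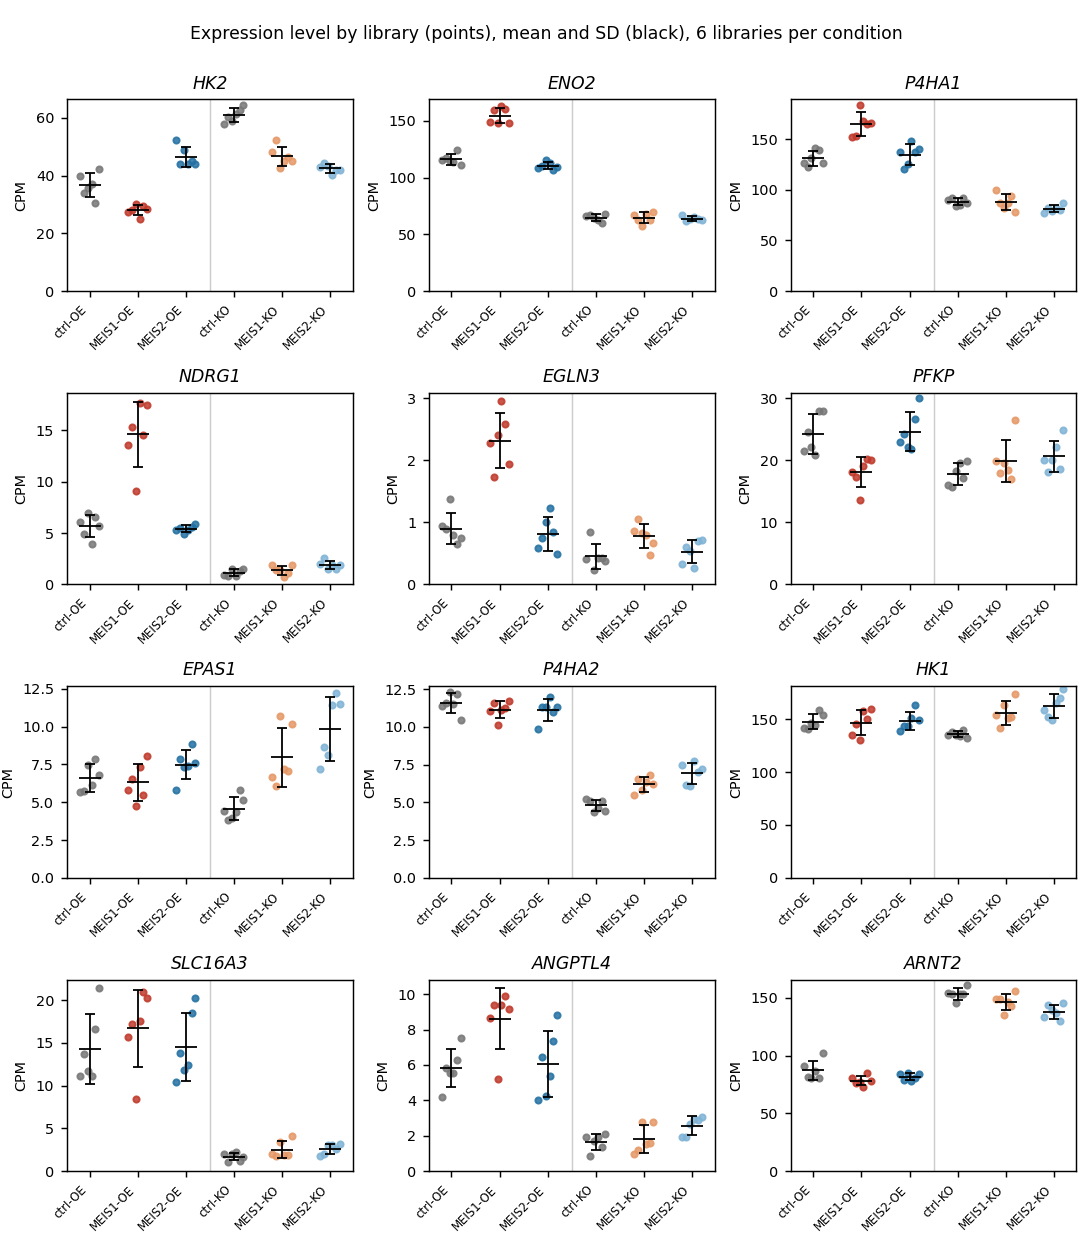
CPM of 12 members in each of the 36 libraries (points), by condition, with the mean and SD of 6 libraries in black; each y axis starts at 0 and the grey line separates the activation from the knockout system. HK2 in MEIS1-OE lies at 24.9 to 30.1 CPM and in MEIS2-OE at 44.04 to 52.5, and NDRG1, SLC16A3 and ANGPTL4 are lower in the 3 knockout conditions than in the 3 activation conditions.

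The contrast that subtracts the knockout effect from the overexpression effect measures how the 2 effects differ, and also calls genes that move in 1 of them. For MEIS1 it called 7 of the 47 members (3.48% of all genes), with 4 positive (2.35%) and 3 negative (1.14%), and for MEIS2 it called 3 (2.57%), with 1 positive (1.39%) and 2 negative (1.18%). The members' median absolute value was 0.105 for MEIS1 (0.143 over all genes) and 0.159 for MEIS2 (0.169 over all genes). HK2 was called for MEIS2 alone, without a test of the difference between the contrasts: it was lower in both MEIS1-OE and MEIS1-KO than in the respective control, so that the MEIS1 contrast was 0.00 ± 0.09 (SE), with a 95% interval of -0.17 to 0.17, whereas it was higher in MEIS2-OE and lower in MEIS2-KO, and the MEIS2 contrast was 0.87 ± 0.09 (SE; edgeR, Benjamini-Hochberg adjusted p = 2.89e-09). ENO2 (0.42 ± 0.06) and P4HA1 (0.33 ± 0.08) were positive in the MEIS1 contrast, and neither passed the test in MEIS1-KO against ctrl-KO.

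EPAS1 was negative in both contrasts, with -0.85 ± 0.21 (SE) for MEIS1 and -0.92 ± 0.21 for MEIS2, and P4HA2 likewise, with -0.42 ± 0.10 and -0.58 ± 0.10. The EPAS1 call was lost without replicate 3 in the MEIS1 contrast (-0.61, adjusted p = 0.151) and without replicate 4 in the MEIS2 contrast (-0.88, adjusted p = 0.0589), and the P4HA2 call in the MEIS1 contrast was lost without replicate 5 (adjusted p = 0.0694). NDRG1 was at 1.11 ± 0.28 in the MEIS1 contrast, and its call was lost without replicates 4, 5 or 6 (adjusted p up to 0.098). PFKP (-0.59 ± 0.15) and PFKM (0.17 ± 0.05) were also called for MEIS1; PFKM was lost under 8 of the 12 alternatives and PFKP under 2.

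More members differed between the 2 controls than between any MEIS condition and its control. In ctrl-OE against ctrl-KO, 31 of the 47 members were called, where 51.4% of all tested genes were, with 21 higher in ctrl-OE (27.5% of all genes) and 10 lower (23.9%). Of them, 10 were beyond a log2 fold change of 0.58, against 22.1% of all genes. The members' median log2 fold change was 0.15, against 0.05 over all genes. Without regard to sign, the median was smaller for the members (0.245) than over all genes (0.347). The libraries did not overlap for 21 members (31.8% of all genes). The controls differ in the number and volume of the viruses, the Cas9 protein and the form of the guide RNA (MS2-bearing in ctrl-OE). These cannot be told apart.

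SLC16A3 (MCT4), the exporter of lactate from glycolytic cells and a HIF target, showed the largest difference of the members with counts to compare. It was at 1.13, 1.82 and 2.20 CPM in ctrl-KO and at 11.1, 12.7 and 21.4 in ctrl-OE, without overlap, a log2 fold change of 3.07 ± 0.24 (SE; edgeR, Benjamini-Hochberg adjusted p = 9.02e-14). Its exons share 482 bases with those of CSNK1D on the other strand. NDRG1 was higher in ctrl-OE by 2.30 ± 0.19 on the log2 scale, ANGPTL4 by 1.82 ± 0.22, P4HA2 by 1.27 ± 0.07, EGLN3 by 0.99 ± 0.27 and ENO2 by 0.85 ± 0.04.

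Among the later steps of glycolysis, GAPDH, ENO1 and PKM were lower in ctrl-OE, while PGK1 and PGAM1 did not pass the test and ENO2 was higher. GAPDH was at 1827, 1966 and 2433 CPM in ctrl-OE and at 2357, 2660 and 2821 in ctrl-KO, and overlapped, with a log2 fold change of -0.38 ± 0.06 (SE). ENO1 had -0.42 ± 0.06, LDHB, the subunit that favours the use of lactate, -0.45 ± 0.05, and PKM, the last ATP-making enzyme, -0.28 ± 0.06. HK2 (-0.74 ± 0.06) and ARNT2 (-0.81 ± 0.05, from 145 to 161 CPM in ctrl-KO to 81.0 to 102 in ctrl-OE) were lower without overlap. As a share of unadjusted library totals, counts on the 15 glycolysis genes took 0.628% to 0.751% in ctrl-OE (median 0.655%). In ctrl-KO they took 0.622% to 0.741% (median 0.709%), and these ranges overlapped. The CPM above use TMM library sizes instead, with scaling factors of 1.019 to 1.079 in ctrl-OE and 0.936 to 0.965 in ctrl-KO. On that scale, the ctrl-OE levels are lower relative to ctrl-KO than in these shares.

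Beside this comparison, 8 of 8 proliferation markers were lower in ctrl-OE, with a summed level of 2045 to 2313 CPM against 3465 to 3750 in ctrl-KO. Of the 9 neural stem cell markers, 7 were lower and 1 higher, with sums of 2967 to 3828 and 4351 to 4871 CPM, and 4 of the 6 neuron markers tested were lower, with sums of 405 to 587 and 969 to 1013 CPM, while DCX, RBFOX3 and STMN2 had medians under 20 counts. The part of these differences in the results for the controls was not tested.

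Several of these differences moved the balance between paralogs, which was described as the share of one gene in the summed CPM per kb of its family, within each library. HK2 made up 22.3% ± 2.3 (SD, n = 6) of the hexokinase pair in ctrl-OE, 18.3% ± 1.9 in MEIS1-OE and 26.7% ± 2.3 in MEIS2-OE, and 34.3% ± 1.0 in ctrl-KO, 25.9% ± 2.6 in MEIS1-KO and 23.4% ± 1.7 in MEIS2-KO. The ranges in MEIS1-OE (15.5% to 21.1%) and ctrl-OE (18.3% to 24.7%) overlapped, while neither knockout (23.2% to 30.1% and 21.5% to 25.4%) reached ctrl-KO (33.3% to 36.2%). ENO2 made up 13.4% to 16.4% of the enolase pair in MEIS1-OE and 9.85% to 12.7% in ctrl-OE, without overlap, and had means of 4.98% to 5.25% in the 3 conditions of the knockout system. PFKP made up 5.81% ± 0.62 of the phosphofructokinases in MEIS1-OE and 8.33% ± 0.61 in ctrl-OE, again without overlap.

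The share of LDHA in the lactate dehydrogenase pair was 10.1% to 10.8% in ctrl-OE, 9.35% to 9.77% in MEIS1-OE and 10.5% to 10.9% in MEIS2-OE, and 7.98% to 8.37% in ctrl-KO, 7.13% to 7.83% in MEIS1-KO and 6.96% to 7.71% in MEIS2-KO. MEIS1-OE and both knockouts thus lay below their control without overlap, although the log2 fold change of LDHA itself, -0.13 ± 0.05 in both MEIS1-OE and MEIS1-KO, did not pass the test there. ARNT2 made up 47.8% ± 3.3 of the ARNT pair in ctrl-OE and 65.1% ± 1.7 in ctrl-KO, with no overlap between the systems.

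**Figure D4:**
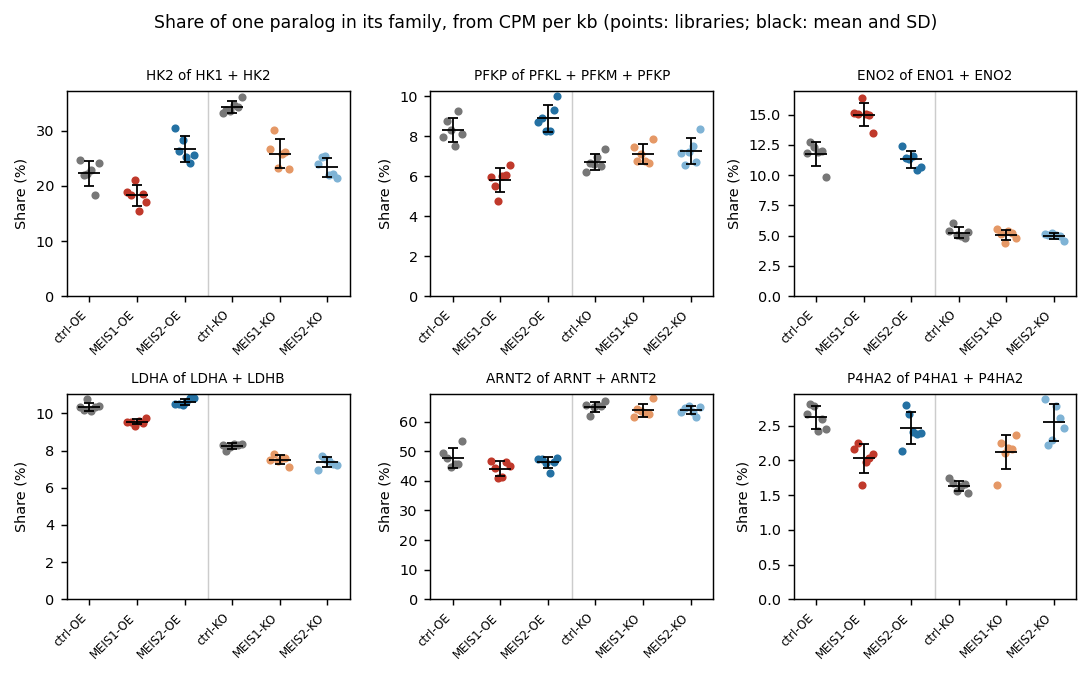
Share in percent of one paralog in the summed CPM per kb of its family, in each of 6 libraries per condition (points), with mean and SD in black; axes start at 0. The HK2 share falls from 34.3% in ctrl-KO to 25.9% and 23.4% in the knockouts, and the LDHA share lies in a narrow band in each condition.

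Lists of related genes that were not members are read against the same shares of all genes called, 9.1% in MEIS1-OE, 1.35% in MEIS2-OE, 1.46% in MEIS1-KO, 10% in MEIS2-KO and 51.4% in ctrl-OE against ctrl-KO. Of 27 further HIF targets tested, 2 were higher and 2 lower in MEIS1-OE, 2 higher in MEIS1-KO, 3 higher and 4 lower in MEIS2-KO, and 12 higher and 8 lower in ctrl-OE against ctrl-KO; in MEIS2-OE, 0 were called by edgeR and 0 had an unadjusted p under 0.05. Of 28 further genes of glucose metabolism, 9 were higher and 2 lower in ctrl-OE against ctrl-KO, and between 1 and 5 were called in each MEIS condition, among them MPC2, a subunit of the mitochondrial pyruvate carrier, with -0.32 ± 0.06 in MEIS1-OE, and ENO3, the muscle enolase, with 0.41 ± 0.07 in MEIS2-OE. Of the 7 genes of the pentose phosphate pathway, 1 was called in a MEIS condition, PGD, which was higher in MEIS2-OE by 0.23 ± 0.04, and 3 were lower in ctrl-OE than in ctrl-KO.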

How the data were processed

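The authors sequenced poly-A RNA with paired reads of 100 bases, which were aligned to hg19 and counted per gene with HTSeq 0.6.0. The methods name STAR 2.4.2a, whereas the submitters' processing notes list Trimmomatic 0.39 and STAR 2.7.0a. The annotation and the strand setting of the counting are not given in the sources used here, so genes with many pseudogene copies (65 for GAPDH, 44 for BNIP3) or with exons that overlap another gene (EGLN2 with RAB4B-EGLN2, SLC16A3 with CSNK1D, PFKM with SENP1) are uncertain. The deposited values are raw counts for 28516 gene symbols in 36 libraries, each assigned to its condition by its label, and the number of reads per library limits the precision of rare genes.

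Tests covered the 19689 genes whose counts over the 36 libraries summed to 10 or more. With edgeR 4.0.16 in R 4.3.3, counts were scaled by TMM, one quasi-likelihood model with 6 groups was fitted, and two-sided F tests of 9 comparisons were adjusted by Benjamini and Hochberg over all tested genes. A gene was called at an adjusted p under 0.05. The standard error (SE) of a log2 fold change was obtained from it and its F statistic. The biological coefficient of variation was 0.0915, and the script was tested on simulated data. CPM use the TMM library sizes. CPM per kb use the joint length of all annotated exons of a gene in the GENCODE annotation for GRCh37. This length can exceed that of the main transcript and differs between paralogs (6.026 kb for LDHA, 2.983 kb for LDHB). Levels compared between genes and paralog shares depend on it. Named are members that were called and beyond a log2 fold change of 0.58, up to 5 called members with the smallest p per direction and comparison, called HIF and oxygen-sensing genes, and up to 3 genes per further list; other members are given by counts and ranges or to complete a comparison. A result that this rule would name is not reported here. Alternatives were RLE scaling, filterByExpr, no filter, DESeq2 1.42.0, a replicate block, only the conditions compared, and leaving out each replicate number. The replicate numbers were not taken to pair the libraries, since the labels give no shared culture or batch and not every equal-numbered pair correlated. The members and lists were chosen with earlier results of these data known.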

Additional observations from a re-analysis of the deposited data

Results flagged for a closer look

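Of 276 groups of 6 libraries examined for the members (46 genes in 6 conditions), 18 held a highest or lowest library whose gap to the next, divided by the range of the group, was above Dixon's 95% value of 0.625; chance gives about 1 in 20. These 18 came mostly from 3 replicates. In MEIS1-OE, replicate 3 was the lowest for ANGPTL4 (5.18 CPM), GPI (113), ALDOA (232) and GAPDH (1701) and the highest for PLOD2 (27.6) and MXI1 (45.1). In ctrl-KO, replicate 2 was the highest for HIF1A (317 CPM), ARNT (78.7), EGLN3 (0.844) and PDK1 (24.9) and the lowest for ENO1 (1282). In MEIS1-KO, replicate 6 was the highest for ADM (93.9 CPM), PFKP (26.5) and TPI1 (611), and replicate 1 for HIF3A (12.4). The others were PFKL in ctrl-OE replicate 6 (126 CPM), PGK1 in ctrl-OE replicate 2 (264, lowest) and PGAM1 in MEIS2-KO replicate 6 (172).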

How the results depend on the processing

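Of 80 calls of members over the 9 comparisons, 72 held under the 6 alternatives that keep all libraries, 57 held under all 12, and 0 reversed. The number of members called stayed within 1.5 times of the value given, except in the following cases. In the MEIS2 contrast (3 members), DESeq2 and the replicate block called 5 each and the fit of only the conditions compared called 7. With single replicate numbers left out, the count ranged from 4 to 8 in MEIS2-KO (10 with all libraries) and from 4 to 6 in the MEIS1 contrast (7), with 4 without replicate 5. Deviations from the condition means had a mean correlation of 0.118 for libraries of equal and -0.0253 for those of other replicate numbers, with 50 of 90 equal-numbered pairs above 0.1 and 15 of 36 libraries nearest to their own number, which is a hint of pairing from the data and not from the design. The replicate block called 13 members in MEIS1-OE, 1 in MEIS2-OE, 4 in MEIS1-KO and 12 in MEIS2-KO. The causes of these shifts in the number of members called were not tested, and leaving out a replicate number also leaves fewer libraries. Of 564 mean levels recomputed, 1 moved by more than 1 SD with RLE scaling and 55 with unadjusted library totals. At 4 to 65 counts per library, EGLN3 is limited by depth, and for CA9 a difference was not detectable.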
